A study of Homo sapiens with 6 samples.

Results

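The EGR1 and SRF circuit was described across 10 genes, chosen by name from the 63677 identifiers of the count table. They were the zinc finger factors EGR1, EGR2 and EGR3, the corepressors NAB1 and NAB2, the serum response factor SRF with its partners ELK1 and ELK4, and the immediate early response genes IER2 and IER3. The fall of EGR1 after Olaparib in these samples was already known when the genes were listed. The differences of all 10 between treatments are therefore given as a description, with estimates and standard errors (SE). Where their calls in the fit over all genes are given below, nothing is read from them. All 10 were found by their Ensembl identifiers and were among the 21729 genes with a total above 10 counts.

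RNA was sequenced from UWB1.289, an established human ovarian cancer cell line deficient in BRCA1, after 24 h with 4 µM of the PARP inhibitor Olaparib (3 samples) or with the vehicle DMSO (3 samples). The genotype field of the labels reads WT for all 6 samples, and the design text of the series gives 10 µM in place of the 4 µM of the labels and the methods. All 6 came from this 1 cell line, grown in medium with fetal bovine serum and with MEGM supplements, which include epidermal growth factor. Per the methods, fresh medium was added with the drug or the vehicle, cells were collected with trypsin and the replicates were independent. The libraries were made from poly(A) RNA with a stranded kit and held 35360458 to 39640775 counts each. Of 10 epithelial and Mullerian marker genes, 9 were present, from the 1243 to 1488 counts of CDH1 to the 138624 to 159817 counts of KRT7, and WT1 had 0 to 2 counts. Of 11 leukocyte, endothelial and fibroblast markers, 4 (CD3E, PECAM1, DCN and LUM) had at most 3 counts in every sample, and the others included CDH5 with 1457 to 1772 and COL1A1 with 237 to 328 counts. The summed normalized counts of the leukocyte markers were 103 to 128 after DMSO and 123 to 143 after Olaparib, those of the endothelial markers 1609 to 1723 and 1564 to 1613, and those of the fibroblast markers 278 to 316 and 239 to 341. VWF, a marker of endothelial cells, had 38 to 46 counts after DMSO and 63 to 69 after Olaparib. The part of these markers in the results below was not tested.

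EGR1 is an immediate early gene, one that growth factor or stress signals switch on within minutes without new protein synthesis. Signals through MAP kinases reach it by way of ternary complex factors such as ELK1 and ELK4, ETS-domain proteins that sit on the promoter beside a dimer of SRF bound to a CArG box. The EGR1 protein binds GC-rich sites in its target genes, and NAB1 and NAB2 bind EGR proteins and repress their activity. NAB2 is itself a known target gene of EGR factors, so the pair forms a feedback loop.

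The promoters are shown because the recognition letters of this circuit can be read in them. RefSeq windows on GRCh38.p14, from 250 bases before to 50 after a transcript start, were held for 8 of the 10 members, 13 windows in all, and there were none for EGR3 and IER3. Matches were searched on both strands for the CArG box (CC, 6 A or T bases, GG), the EGR motif GCGNGGGCG, the ETS motif CNGGAAG and the cyclic AMP response motif TGACGT. The EGR motif ends in GGGCG, letters that it shares with the GC box that SP1 binds. In the sequences that follow, capitals mark these matches. The first is the 250 bases before the start of EGR1, chr5:138465229-138465478 on the plus strand, and the second those before the first start of SRF, chr6:43171019-43171268 on the plus strand.
EGR1: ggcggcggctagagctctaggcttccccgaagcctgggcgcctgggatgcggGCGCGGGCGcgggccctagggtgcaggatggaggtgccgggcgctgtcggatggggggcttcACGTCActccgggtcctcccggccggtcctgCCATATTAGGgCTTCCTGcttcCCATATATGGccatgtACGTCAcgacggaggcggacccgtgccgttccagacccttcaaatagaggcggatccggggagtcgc
SRF: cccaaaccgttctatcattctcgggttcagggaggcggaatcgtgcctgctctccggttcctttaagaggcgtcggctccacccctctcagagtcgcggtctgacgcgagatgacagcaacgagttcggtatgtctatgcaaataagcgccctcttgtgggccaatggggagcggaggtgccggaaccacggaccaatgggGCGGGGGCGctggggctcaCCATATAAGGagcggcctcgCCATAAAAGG
The EGR1 stretch held 2 CArG boxes, with first bases 105 and 83 bases before the start, an ETS match between them, 2 cyclic AMP response matches and 1 EGR motif. SRF, whose product binds CArG boxes, also had 2 of them, with first bases 30 and 10 bases before the start, beside 1 EGR motif. Stretches of 30 bases show single matches in EGR2 (start 3, chr10:62816418-62816447, minus strand, CArG box), NAB1 (chr2:190648898-190648927, plus strand, EGR motif) and NAB2 (chr12:57089042-57089071, plus strand, EGR motif).
EGR2: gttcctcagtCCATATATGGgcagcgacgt
NAB1: actcggccgcGCGTGGGCGggagccggagc
NAB2: tgtgcgtcctGCGGGGGCGgaggcgcggag
Of all 35116 windows in the RefSeq table, 454 held a CArG box, 9.43% the EGR motif, 33.6% the ETS motif and 7.98% the cyclic AMP response motif. Of the 8 members with windows, 3 (EGR1, EGR2 and SRF) had a CArG box and 5 (EGR1, EGR2, NAB1, NAB2 and SRF) an EGR motif. An ETS match was found in 5 members and a cyclic AMP response match in 4. Some members had several windows, whereas the values for the RefSeq table count single windows. Of the 13 member windows, 3 held a CArG box, 6 an EGR motif, 5 an ETS match and 4 a cyclic AMP response match. Windows 1 and 2 of NAB1 overlap and share EGR matches. Whether the members differ from the RefSeq table was not tested. ELK4 held 2 ETS matches and 1 cyclic AMP response match, IER2 held 1 ETS match, and the ELK1 window held none of the 4 motifs. A match is a run of letters and not a measured site, and a window without one says nothing of the factor.

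**Figure D1:**
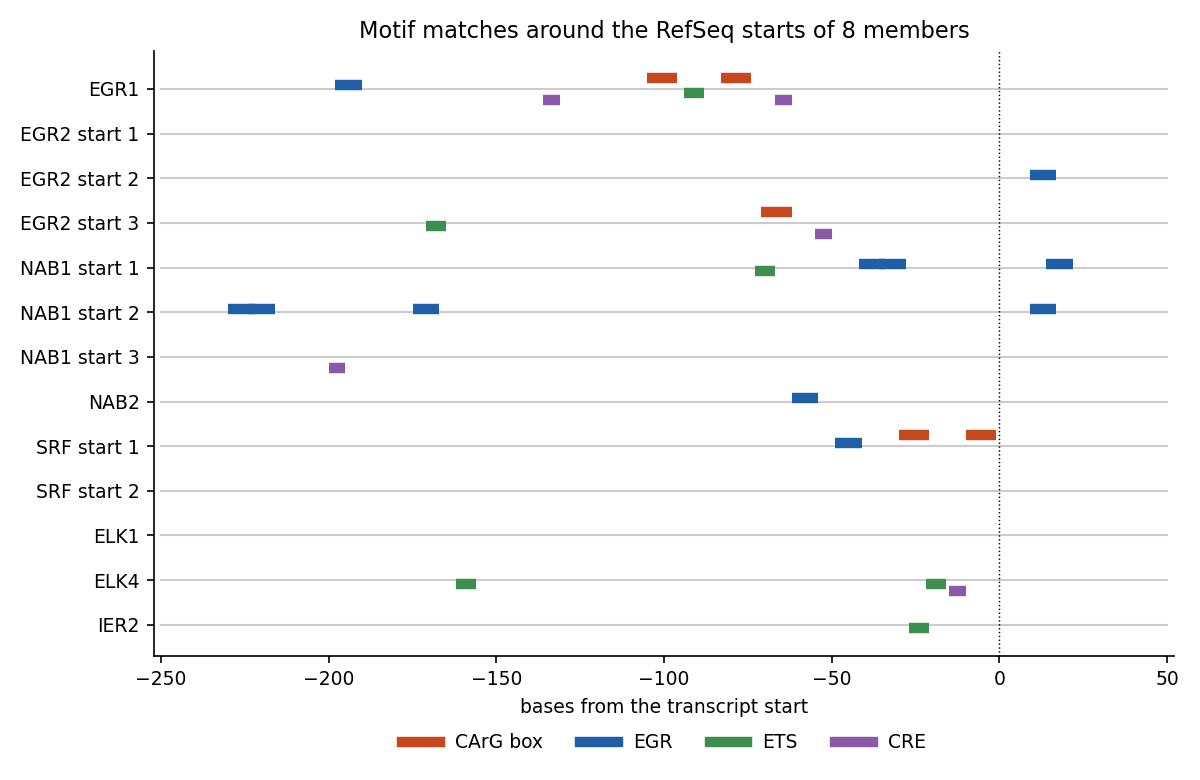
Positions of motif matches (coloured bars) in 13 RefSeq promoter windows of 8 members, with the distance in bases from the transcript start on the horizontal axis and a line per window. CArG boxes appear in EGR1 (2), SRF (2) and start 3 of EGR2 (1), and EGR motifs in EGR1, EGR2, NAB1, NAB2 and SRF.

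The members covered a wide range of transcript levels. Levels of different genes were compared as RPKM, read counts scaled to exon length and to library size. After DMSO the order was IER3 (32.7 ± 0.527 RPKM, SD, n = 3), IER2 (29.3 ± 0.400), SRF (12.96 ± 0.224), NAB1 (9.25 ± 0.144), ELK1 (7.97 ± 0.0991), NAB2 (7.20 ± 0.0945), ELK4 (2.20 ± 0.107), EGR1 (1.73 ± 0.0807), EGR3 (0.0354 ± 0.0128) and EGR2 (0.0257 ± 0.0286). The DMSO samples of neighbouring genes in this order did not overlap, except for EGR3 and EGR2, which did not differ beyond their spread. EGR1 lay at percentile 52.1 of the RPKM values of tested genes with an annotated length, IER3 at 93.5, SRF at 83.5, EGR3 at 7.54 and EGR2 at 5.41. The level of EGR1 was 48.9 times that of EGR3, so nearly all EGR transcript in these cells was EGR1. After Olaparib the order was the same for the first 8 genes, and EGR2 and EGR3 again overlapped.

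**Figure D2:**
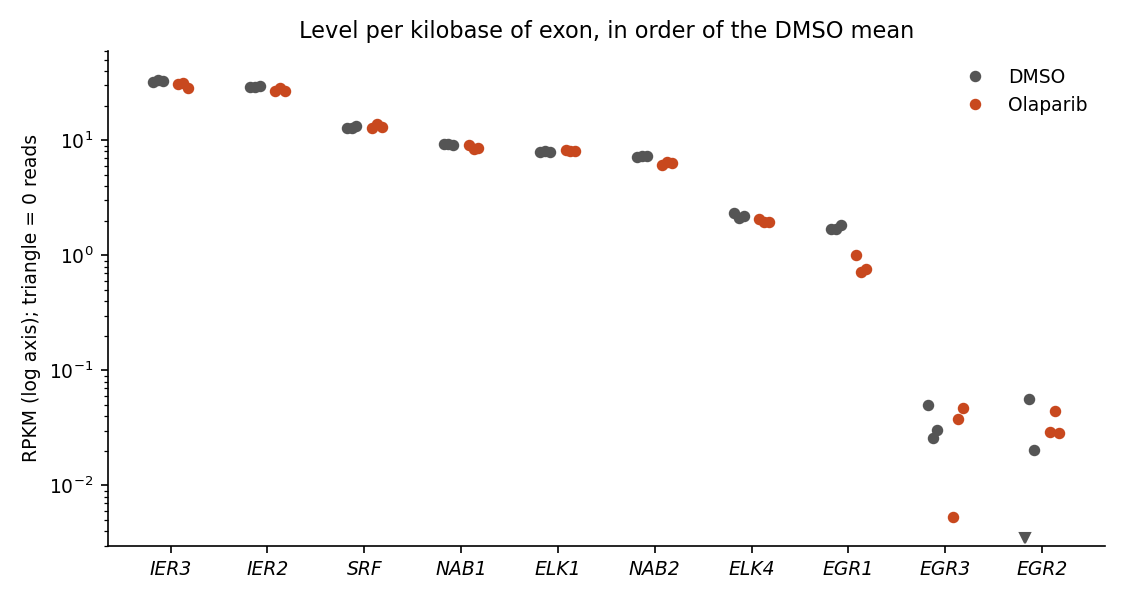
RPKM of the 10 members in each sample on a log axis, ordered by the DMSO mean (grey, DMSO, orange, Olaparib, 3 points each, a triangle for a sample with 0 reads). IER3 and IER2 lie near 30, EGR1 between 0.716 and 1.82, and EGR2 and EGR3 below 0.06.

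EGR1 itself (ENSG00000120738, chromosome 5, 138465479 to 138469303 on GRCh38, plus strand) had 199, 197 and 214 normalized counts after DMSO and 117, 84.1 and 89.5 after Olaparib. The groups did not overlap, and replicate 1 was the highest of the Olaparib samples. The log2 fold change was -1.07 (SE 0.11, 95% interval -1.30 to -0.84), a level lower by 52.3%. It was -1.23 without Olaparib replicate 1 and -0.98 without Olaparib replicate 2. None of its exonic bases overlap another annotated gene.

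The paralogs EGR2 and EGR3 bind the same GC-rich sites as EGR1 and are induced by the same signals in many cells. EGR2 (ENSG00000122877, chromosome 10, 62811996 to 62819167) had 0, 8 and 3 reads after DMSO and 4, 6 and 4 after Olaparib. EGR3 (ENSG00000179388, chromosome 8, 22687659 to 22693480) had 9, 5 and 6 reads after DMSO and 1, 7 and 9 after Olaparib. Of the exonic bases, 3.91% in EGR2 overlap another gene on the same strand and 3.26% in EGR3 a gene on the opposite strand. The groups overlapped in both genes, and no order of the treatments could be read. The ratio of summed counts, Olaparib to DMSO and scaled for depth, was 1.30 for EGR2 (95% interval 0.548 to 3.16, exact Clopper-Pearson, counting error only) and 0.868 for EGR3 (0.427 to 1.74). The point estimate of EGR1, a level lower by 52.3%, lay outside the EGR2 interval and inside the EGR3 interval. The EGR2 interval leaves out the spread between samples, where the DMSO reads ran from 0 to 8. In the edgeR fit the EGR2 interval, -0.97 to 1.70 on the log2 scale, overlapped that of EGR1, -1.30 to -0.84. This depth thus could not show whether EGR2 or EGR3 moved with EGR1. EGR4, the fourth member of the family and the first gene here outside the 10, had 1 read in all 6 samples together.

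NAB2 (ENSG00000166886, chromosome 12, 57089043 to 57095476) had 759, 778 and 775 normalized counts after DMSO and 652, 699 and 685 after Olaparib. The 3 Olaparib samples lay below the 3 DMSO samples. The log2 fold change was -0.18 (SE 0.049, 95% interval -0.28 to -0.085). NAB1 (ENSG00000138386, chromosome 2, 190646746 to 190692766), which represses the same EGR proteins, had 1702, 1711 and 1662 normalized counts after DMSO and 1673, 1547 and 1574 after Olaparib. Its groups overlapped through Olaparib replicate 1, and its log2 fold change was -0.082 (SE 0.043). Of the exonic bases, 2.41% in NAB2 and 12.3% in NAB1 overlap genes on the opposite strand, among them STAT6 for NAB2, and the strand setting of the counting is not stated.

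SRF (ENSG00000112658, chromosome 6, 43171269 to 43181506) had 2024, 2041 and 2092 normalized counts after DMSO and 2046, 2194 and 2087 after Olaparib. The groups overlapped, and the log2 fold change was 0.039 (SE 0.041, 95% interval -0.044 to 0.12). ELK1 (ENSG00000126767, chromosome X, 47635521 to 47650604), a ternary complex factor that MAP kinases phosphorylate, had 1002, 1027 and 1012 normalized counts after DMSO and 1053, 1036 and 1032 after Olaparib. The Olaparib samples lay just above the DMSO samples, with a log2 fold change of 0.038 (SE 0.045). ELK4 (ENSG00000158711, chromosome 1, 205597556 to 205632011), the ternary complex factor also called SAP-1, had 1056, 960 and 994 normalized counts after DMSO and 950, 891 and 891 after Olaparib. Its Olaparib samples were below its DMSO samples, though replicate 1 after Olaparib and replicate 2 after DMSO were close. The log2 fold change of ELK4 was -0.14 (SE 0.048), and -0.100 without DMSO replicate 1. The ratio of ELK1 to ELK4 in RPKM was 3.63 ± 0.218 (SD, n = 3) after DMSO and 4.10 ± 0.110 after Olaparib, whereas the ratio of SRF to ELK1 was 1.63 in both groups.

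IER2 (ENSG00000160888, chromosome 19, 13150411 to 13154911) encodes a nuclear protein induced by growth factors. It had 3374, 3333 and 3425 normalized counts after DMSO and 3078, 3259 and 3110 after Olaparib, a log2 fold change of -0.10 (SE 0.037). IER3 (ENSG00000137331, chromosome 6, 30743199 to 30744548), a stress-induced gene whose product acts on cell survival, had 1632, 1682 and 1640 normalized counts after DMSO and 1553, 1586 and 1450 after Olaparib, a log2 fold change of -0.11 (SE 0.044). In both genes all Olaparib samples were below all DMSO samples. Genes on the opposite strand overlap 52.2% of the exonic bases of IER2 and 38.9% of those of IER3, so both counts are uncertain where strand was not used.

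**Figure D3:**
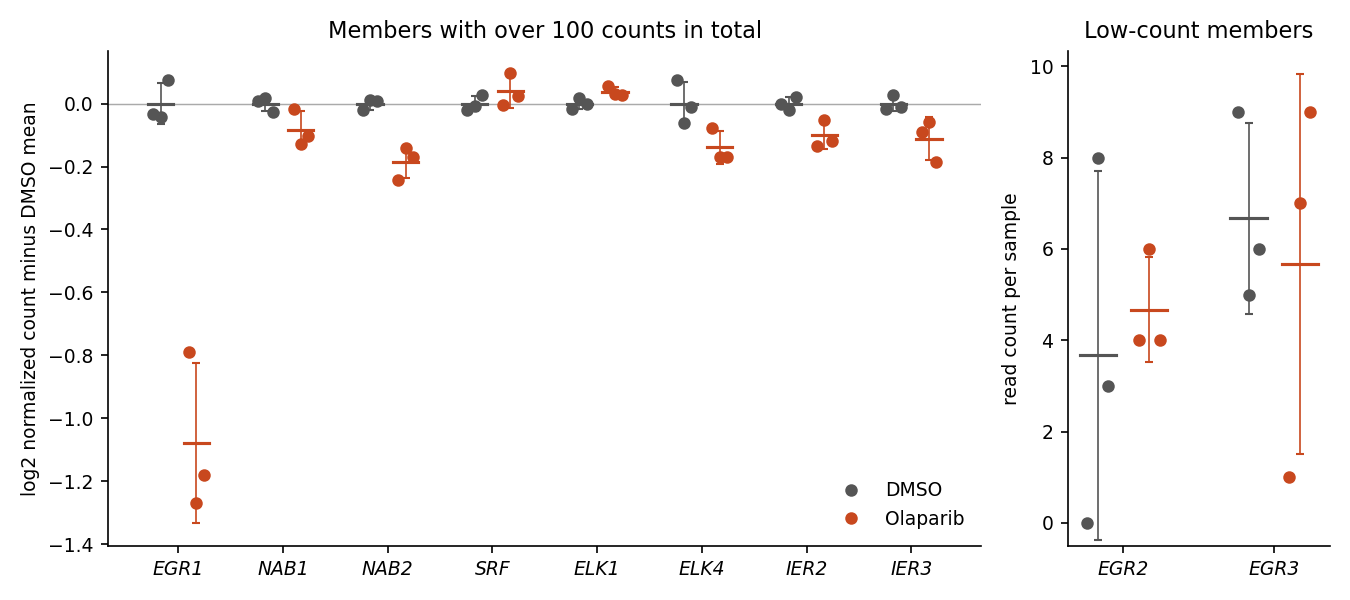
Left, log2 normalized counts of 8 members in each sample minus the DMSO mean, and right, read counts of EGR2 and EGR3 (grey, DMSO, orange, Olaparib, with bars for mean and SD, n = 3). The EGR1 points after Olaparib lie far below those of the other members, 5 genes lie below DMSO without overlap, and EGR2 and EGR3 overlap.

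Set side by side, the estimate for EGR1 lay farthest from 0 among the 8 members with more than 100 reads. The next lower was NAB2, and the other 6 lay between -0.14 and 0.039 on the log2 scale. In 5 members (EGR1, NAB2, ELK4, IER2 and IER3) the 3 Olaparib samples were below the 3 DMSO samples and in 1 (ELK1) above, where 9.29% of the genes tested were lower and 10.0% higher without overlap. Of the 10 members, 2 (EGR1 and NAB2, both lower) were past the edgeR threshold of 0.05 after adjustment over all genes, against 3.36% of genes in either direction, 2.15% higher and 1.21% lower. The fit used the contrast that led to the choice of the genes, so nothing is read from these calls or from their changes in the repeats. The call of NAB2 was lost with DESeq2 and with any sample but Olaparib replicate 2 left out, and ELK4 was below 0.05 without Olaparib replicate 1. Among the Olaparib samples, replicate 1 was the highest in EGR1, NAB1, ELK1 and ELK4 and the lowest in NAB2, SRF and IER2, so the members had no common order of samples.

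The composition of the circuit within each sample was expressed as RPKM of a gene per RPKM of EGR1. NAB2 stood at 4.19, 4.33 and 3.97 per EGR1 after DMSO and at 6.09, 9.11 and 8.39 after Olaparib. NAB1 stood at 5.35 ± 0.324 and 10.7 ± 1.41 (SD, n = 3 each), so the corepressor transcripts together went from 9.51 ± 0.4998 to 18.6 ± 2.99 per EGR1. SRF went from 7.49 ± 0.225 to 16.5 ± 3.28 per EGR1. All 7 ratios were higher in every Olaparib sample than in any DMSO sample, which follows from the EGR1 values, since the numerators changed far less than EGR1.

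**Figure D4:**
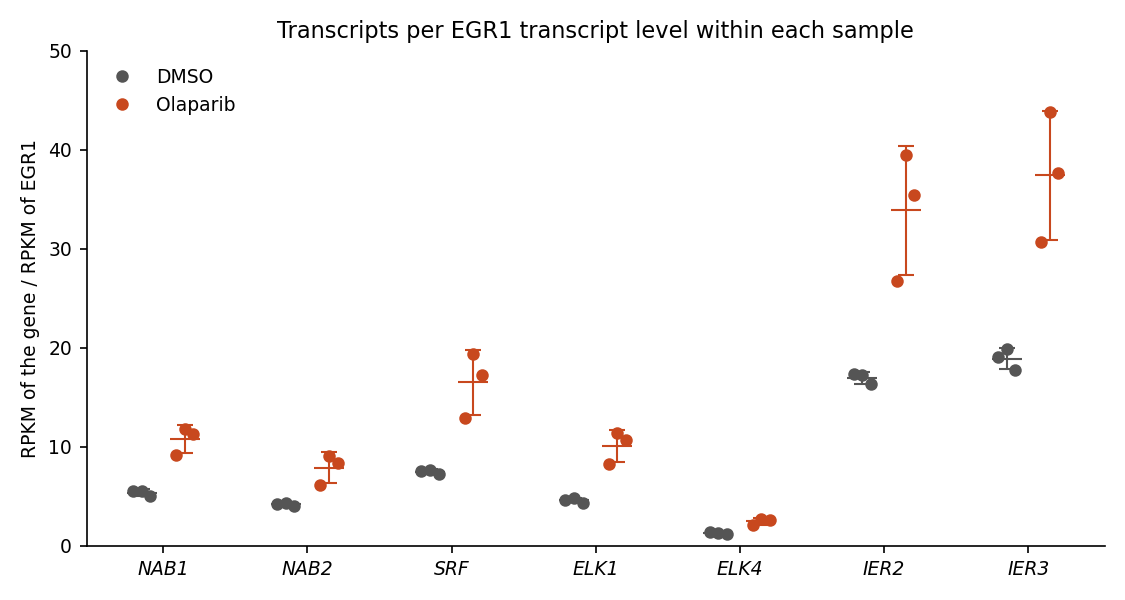
RPKM of 7 members divided by the RPKM of EGR1 in the same sample (vertical axis from 0, grey, DMSO, orange, Olaparib, with bars for mean and SD, n = 3). All ratios are higher after Olaparib, and replicate 1, drawn first in each group of 3, has the lowest ratio of the Olaparib samples for each gene.

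Genes around the circuit that are not among the 10 were examined as 5 lists, written from general knowledge. These were tested in the same edgeR quasi-likelihood fit with Benjamini-Hochberg adjustment over all 21729 genes, of which 3.36% had an adjusted p under 0.05 and whose median log2 fold change was -0.0042.

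Of 25 further immediate early genes, 24 were tested, and 3 rose and 0 fell. Without Olaparib replicate 1 the split was 3 higher and 3 lower, and without the filter on low counts 3 higher and 1 lower. The median of the list was 0.045 on the log2 scale, and 15 estimates were above and 9 below 0. It ran from 0.024 without Olaparib replicate 1 to 0.069 without Olaparib replicate 3. At an unadjusted p under 0.05 in edgeR's test, 7 genes were higher and 3 lower. DUSP1, a phosphatase that removes phosphate from MAP kinases, rose from 1054, 1070 and 1054 to 1341, 1279 and 1234 normalized counts. The groups were far apart relative to their spread, with a log2 fold change of 0.28 (SE 0.045, edgeR adjusted p = 1.5e-04). This rise passed with each sample left out (highest edgeR adjusted p 0.0034). JUN, a subunit of the AP-1 factor, rose by 0.13 (SE 0.032, edgeR adjusted p = 0.0176), and IER5, which is named like IER2 and shares part of its sequence, by 0.16 (SE 0.046, edgeR adjusted p = 0.0473). JUN lost its call without Olaparib replicate 2 or without any 1 DMSO sample (highest edgeR adjusted p 0.121). IER5 lost it without every sample but Olaparib replicate 1 (highest adjusted p 0.235) and with DESeq2 (0.0654), limma voom (0.0516) or at least 10 counts required in every sample (0.0540). The 3 most abundant genes of the list that did not pass were CCN2, CCN1 and MCL1, with estimates of -0.075, -0.082 and -0.034 (edgeR adjusted p = 0.142, 0.111 and 0.639). Without Olaparib replicate 1, the edgeR adjusted p was 0.0132 for CCN1 and 0.0209 for CCN2, so both fell in that repeat, as did CCN1 without the filter on low counts (0.0392). ARC had 6 reads in total and was not tested.

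Of 15 cofactors and relatives of the EGR and SRF factors, 13 were tested and 0 passed in edgeR's test, with 2 higher and 2 lower at an unadjusted p under 0.05, and 0 passed with DESeq2 or limma voom. Their median log2 fold change was -0.013. The most abundant were TRIM28, CHD4 and CHD3, chromatin regulators of which CHD4 and CHD3 are remodelers of the NuRD complex, with log2 fold changes of 0.087, -0.028 and -0.068 (edgeR adjusted p = 0.103, 0.716 and 0.266). The remaining ternary complex factor ELK3 and the SRF coactivators MRTFA and MRTFB, named after their values were seen, had estimates of -0.0029, 0.10 and 0.083 (edgeR adjusted p = 0.989, 0.303 and 0.536). MYOCD, the coactivator of SRF in heart and smooth muscle, had 1 read in total.

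Of 19 kinases and phosphatases listed around ELK1 and its MAP kinases, all tested, 1 rose and 0 fell, and the median was 0.010. Not all of them act on ELK1 or lie upstream of it. MAP2K2, a kinase that phosphorylates MAP kinases, rose from 3482 ± 91.1 to 3884 ± 195 normalized counts (SD, n = 3 each), or by 0.16 on the log2 scale (SE 0.038, edgeR adjusted p = 0.0135). The call was lost without Olaparib replicate 2, DMSO replicate 1 or DMSO replicate 2 (highest adjusted p 0.133). Its close relative MAP2K1 had an estimate of 0.0066 (edgeR adjusted p = 0.953), and the ribosomal S6 kinase RPS6KA2 of 0.037 (edgeR adjusted p = 0.728). The counts give the transcripts of these enzymes and say nothing of their activity.

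The cytoskeletal targets of SRF and its MRTF coactivators showed 1 rise and 1 fall among 20 genes tested, with a median of 0.024. ACTB, the beta-actin gene, fell by 0.11 on the log2 scale (SE 0.025, edgeR adjusted p = 0.0113), from 116736 ± 232 to 108428 ± 1171 normalized counts. FHL1, a LIM-domain protein gene, rose by 0.11 (SE 0.028, edgeR adjusted p = 0.0226), from 9559 ± 183 to 10314 ± 43.1. ACTB lost its call without Olaparib replicate 3, DMSO replicate 1 or DMSO replicate 2 (highest adjusted p 0.105) and with at least 10 counts required in every sample (0.0597), and FHL1 without Olaparib replicate 3 or any 1 DMSO sample (highest adjusted p 0.107). ACTG1, FLNA and MYH9, the most abundant others, had estimates of -0.067, -0.060 and 0.0015 (edgeR adjusted p = 0.173, 0.294 and 0.989). With limma voom ACTG1 was a further fall (adjusted p = 0.0192). The sign of MYH9 turned in some repeats, as far as -0.021 without Olaparib replicate 2.

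Among 18 genes described as targets of EGR1, 17 were tested, and 3 rose and 0 fell, with a median of 0.032. PDGFB, a platelet-derived growth factor chain, had 2988, 3043 and 3122 normalized counts after DMSO and 3392, 3632 and 3499 after Olaparib. Its groups were well apart, with a log2 fold change of 0.20 (SE 0.038, edgeR adjusted p = 9.9e-04), and it passed with each sample left out (highest edgeR adjusted p 0.0137). CD44, a hyaluronan receptor, rose by 0.13 (edgeR adjusted p = 0.0201), a call lost without Olaparib replicate 1, DMSO replicate 2 or DMSO replicate 3 (highest adjusted p 0.195). FN1, F3 and ICAM1, the most abundant genes of the list that did not pass, had estimates of 0.0083, 0.032 and -0.066 (edgeR adjusted p = 0.936, 0.639 and 0.322). FN1 went to -0.0077 without Olaparib replicate 1 and to -0.0045 without DMSO replicate 1. IGF2 had 6 reads in total. Of all estimates of this list, 13 were above and 4 below 0. At an unadjusted p under 0.05 in edgeR's test, 5 genes were higher and 2 lower. The genes of this list that passed in this fit were thus higher, whereas EGR1 was lower in the same samples. With the replicate number as a block, 4 passed as higher and 1, FGF2, as lower (edgeR adjusted p = 0.041). Without the block, FGF2 had an estimate of -0.18 (edgeR adjusted p = 0.104), with all Olaparib samples below all DMSO samples. Whether EGR1 acts on these genes in this cell line was not measured.

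**Figure D5:**
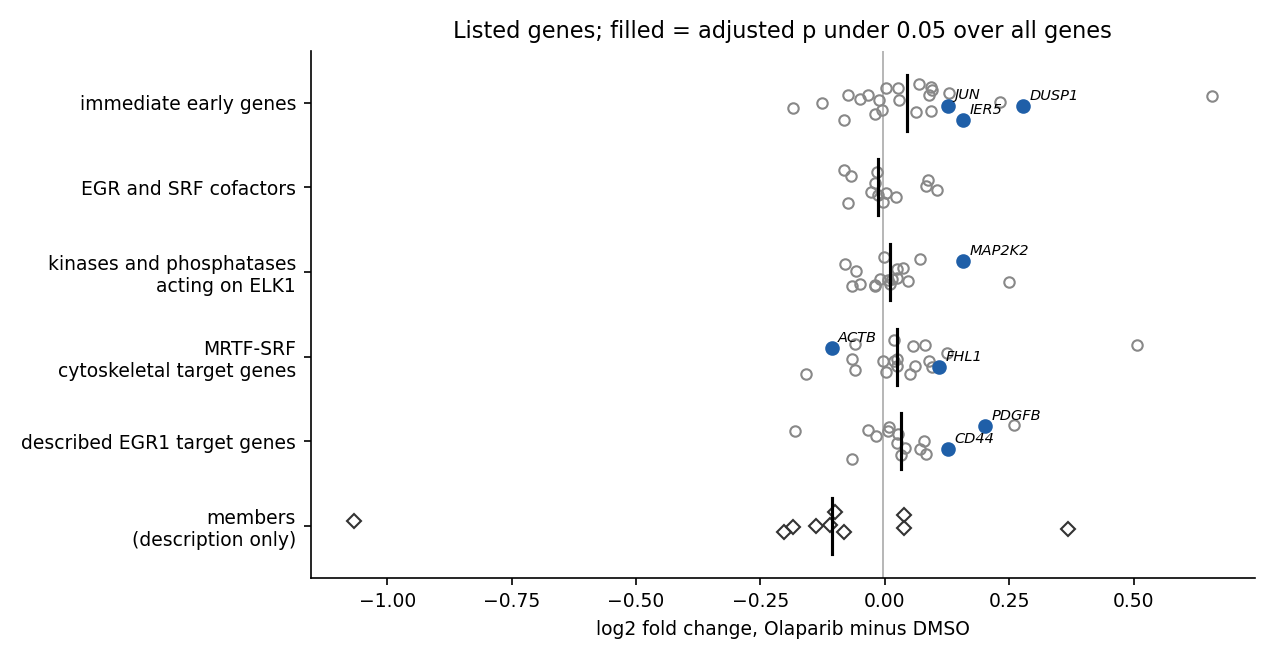
Log2 fold change, Olaparib minus DMSO, of the tested genes in the 5 lists other than 2 that are not reported here (circles, filled and named where the adjusted p over all genes was under 0.05) and of the 10 members (diamonds, a description without a test), with black bars for the medians and a grey line for the median of all genes. Of the 8 filled circles, 7 lie above 0, with DUSP1 the farthest, and ACTB lies below.

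The tested genes were also grouped by the motifs in their RefSeq windows, leaving out the members. Of 13219 tested genes with a window, 3.94% passed an adjusted p of 0.05 in edgeR's test, 344 higher and 177 lower, and the median log2 fold change was 0.0033. With a CArG box, 9 of 209 genes passed (4.31%), 6 higher and 3 lower, with a median of -0.0092. With an EGR motif, 4.52% of 2413 genes passed, 75 higher and 34 lower, with a median of 0.0054. The shares for the ETS motif (3.68% of 6224 genes) and the cyclic AMP response motif (3.87% of 1730) were near that of all genes with a window. At least 2 CArG boxes in a single window, as in EGR1 and SRF, were found in 6 other tested genes. Of these, AGPAT1, ING4, ZNF548 and CUL4B had a mean count above 20, with log2 fold changes of -0.057 (SE 0.043), -0.060 (SE 0.053), -0.068 (SE 0.068) and -0.038 (SE 0.035). Of the 6 genes, 0 passed in edgeR's test, and the adjusted p of these 4 was 0.592, 0.665, 0.715 and 0.683.

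The 5 genes whose pattern over the 6 samples was most like that of EGR1 were sought among the 14807 whose mean count was 20 or more. Likeness was the root mean square difference between mean-centred log2 normalized counts. All 6 samples entered, so the measure picks genes with a fall like the known fall of EGR1. The nearest was EEF1A1P5, a processed pseudogene whose reads can come from its parent gene, at 0.129. It had 159, 184 and 153 normalized counts after DMSO and 86.0, 70.8 and 70.6 after Olaparib. It was followed by RPP21 (0.187), which encodes a subunit of ribonuclease P, the processed pseudogene ENSG00000213315 (0.218), the long non-coding RNA gene LINC01011 (0.220) and the pseudogene SMG1P7 (0.221). The log2 fold changes of these 5 genes ran from -1.12 (EEF1A1P5) to -0.68 (ENSG00000213315), as the choice entails. These 5 genes are in neither the member list nor the other lists.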

How the data were processed

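The authors deposited a table of raw gene-level read counts for 3 Olaparib and 3 DMSO samples of UWB1.289 cells. Per the methods and labels, adapters were trimmed with Trimmomatic, reads were mapped to GRCh38 (hg38) with STAR, PCR duplicates were identified with Picard and reads were assigned to genes with featureCounts. Whether duplicates were removed and which strand setting was used is not given in the sources used here. Samples were assigned to groups by their titles.

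Genes with more than 10 counts in total were normalized with edgeR's TMM method and fitted by quasi-likelihood, and p values were adjusted over all 21729 genes by the method of Benjamini and Hochberg, with a threshold of 0.05 (edgeR 4.0.16 in R 4.3.3, with DESeq2 1.42.0 and limma 3.58.1 for alternatives). The edgeR test stood in for DESeq2, the tool of the study, which was run as an alternative. Standard errors were taken as the log2 fold change divided by the root of the F statistic. Replicates of a group differed by more than the sampling noise (chi-square per degree of freedom 1.81 to 4.11 over 15525 genes), and all 6 samples were counted. Symbols, coordinates and exon lengths came from GENCODE release 44, which held 96.0% of the genes tested. Lengths were taken from there because the count table gives none. Promoters came from RefSeq (GRCh38.p14). On simulated counts for Olaparib against DMSO over 21240 genes, 200 of 200 genes changed by 1 on the log2 scale were recovered and 10 unchanged genes were called. No smaller change and no change of a low-count gene was simulated. Every simulated gene had the same relative spread between replicates beyond counting error, unlike the genes of the data. The recovery thus does not cover changes as small as those of the list genes, or counts as low as those of EGR2 and EGR3. It also does not cover genes with a wider spread.

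The members and lists were chosen with earlier results of these data known. Named were the 10 members, list genes past the threshold, the 3 most abundant of each list that were not, list genes at or under 10 counts, and the 5 genes most like EGR1. Of the listed genes, 2 were counted with their lists but are not reported here. ELK3, MRTFA, MRTFB, FGF2 and genes with 2 CArG boxes were singled out with their values known, as was the grouping by motif. With total counts of 35360458 to 39640775 per sample, intervals from counts cover counting error only. The p values compare 3 cultures of 1 cell line per group, with the variance of each gene drawn toward that of the other genes. The median degrees of freedom in the edgeR fit was 33.3, more than 6 samples give. The p values and the intervals of that fit thus rest in large part on other genes. The alternatives were other normalizations, tests, filters and thresholds, a replicate block, the longest transcript as length and leaving out each sample.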

Additional observations from a re-analysis of the deposited data

How the results depend on the processing

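The log2 fold changes of the 10 members moved by less than the spread between replicates under all 118 alternatives that gave a value. Leaving out 1 of 3 samples can hardly move an estimate by more than that spread, so those repeats were no test of it. With 1 sample left out, EGR2 ranged from -0.16 to 1.58 and EGR3 from -0.68 to 0.29, each changing sign. The order of the levels after DMSO was the same with the length of the longest transcript. With at least 10 counts in every sample, EGR2 and EGR3 were not tested. Of 60 repeats for the list medians, 52 moved by less than the spread between replicates and 8 by more, mostly in the immediate early genes. Of 288 repeats for named list genes, 253 kept their side of the threshold, 26 lost it and 9 gained it, and none turned in direction with a call. Over all genes, 730 passed, against 525 with DESeq2 and 671 with limma voom, and 262 with a further minimum of log2(1.2) on the size of the change. With that threshold 1 immediate early gene (DUSP1) and 1 described EGR1 target were left, and 0 genes of the kinase and cytoskeletal lists by edgeR's test, where without that minimum 1 was higher and 1 lower at an unadjusted p under 0.05 among the kinases and 5 higher and 4 lower among the cytoskeletal genes. Without a filter on low counts 1 cofactor (TRIM28) passed.

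With 1 sample left out, 398 (without DMSO replicate 2) to 870 genes (without Olaparib replicate 1) passed over all genes, with 439 without Olaparib replicate 3 and 401 without DMSO replicate 3. In the same repeats 1 to 6 immediate early genes, 0 to 1 kinases, 0 to 4 cytoskeletal genes and 2 to 3 described EGR1 targets passed. The highest counts of immediate early (3 higher and 3 lower) and cytoskeletal genes (3 higher and 1 lower) came without Olaparib replicate 1. The cause was not tested. With the replicate number as a block, 1322 genes passed over all genes. Among them were 7 immediate early genes (4 higher and 3 lower), 2 cofactors and 6 cytoskeletal genes (4 higher and 2 lower). Of the described EGR1 targets 5 passed, 4 higher and 1 lower, and 3 members (EGR1, NAB2 and ELK4) were past the threshold. The labels give only a replicate number, and the methods name no pairing. The deviations of same-numbered samples correlated at -0.012, 0.078 and -0.0063 over 15525 genes, and those of differently numbered samples at -0.109 to 0.103. Among the Olaparib samples only replicate 2 correlated best with its own number. With 3 samples per group, these values cannot decide whether same-numbered samples were handled together. Depth limited EGR2 and EGR3, at 25 and 37 reads in total.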
